A study of Drosophila melanogaster with 2 samples.

Results

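The digestive enzyme genes described here are 43 of the 13968 protein-coding genes in the Ensembl BDGP6 annotation of Drosophila melanogaster, and they were examined for binding of the transcription factor GATAd. They were chosen by symbol alone. The rule took symbols that start with Jon and a digit, with Mal-A, with Amy- or with Lys and a single capital letter, and symbols that end in Try after the name of a Greek letter. It gave 16 Jonah proteases, 11 trypsins, 8 maltases, 6 lysozymes and 2 amylases, and each gene has 1 annotated transcription start site (TSS). The rule uses no measured value, but it was drawn up with earlier results of these data known.

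These families include enzymes that the midgut secretes into its lumen, and which members are active in the larvae sampled is not known from these lists. Jonah proteases and trypsins are serine endopeptidases that cut dietary protein, trypsins after lysine or arginine. Amylases cut starch into shorter sugars and maltases release glucose from those, while the digestive lysozymes break the cell walls of ingested bacteria. Members of most of these families lie side by side in tandem clusters. GATA factors are zinc-finger proteins that bind short DNA words built around the letters GATA, and the family members srp and GATAe are known for their roles in forming the Drosophila midgut and switching on its genes.

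The data came from chromatin immunoprecipitation followed by sequencing on wandering larvae of the last instar, taken whole, with males and females pooled. All larvae belonged to the GATAd-GFP line, which stably expresses GATAd with GFP at its C terminus. Chromatin was fragmented by sonication and precipitated with an antibody to GFP, although the antibody is entered elsewhere in the labels as GATAd. The study has 1 group with biological replicates 2 and 3, and no replicate without the fusion protein was analysed here. The midgut is only a part of a whole larva, so a site bound in few cells and a site bound weakly in many cannot be told apart. The lists hold no expression values against which the tissue could be checked.

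4 peak lists on the build dm6 were read. The replicate 2, replicate 3 and pooled lists hold 30000 candidates each, and candidates include background by design. The list that passed the irreproducible discovery rate (IDR) threshold holds 1205 peaks. The pooled list was made from the reads of both replicates and all candidates were called against a control, so the lists are not independent of each other. The strength of a candidate is given as the authors' signal, whose scale is not stated, and as its rank in its own list, where rank 1 is the strongest. The weakest, median and strongest signals were 13.4, 17.2 and 547 in the pooled list, 9.56, 12.3 and 342 in replicate 2, and 6.42, 8.77 and 219 in replicate 3. Signals are therefore compared within a list only. Read depth is unknown. With 1 group there is no contrast to test, and shares are given with Wilson 95% intervals that cover the counting of genes only.

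The promoters show what these genes have in common apart from their names. The sequences below are the 250 bases upstream of the TSS, 5′ to 3′ on the strand of the gene, from the RefSeq Release 6 genome, which is dm6. Capitals mark GATA words, which here means any of 4 words of 6 bases on either strand. They are AGATAA, its form ending in G (AGATAG), the word TGATAA, and its own form ending in G (TGATAG), and neighbouring words can share bases. The Jon65A genes are shown because every one of them had a pooled candidate within 1 kb, and Jon65Aii because its promoter holds no GATA word.
Jon65Aiv, chr3L:6038905-6039154, + strand: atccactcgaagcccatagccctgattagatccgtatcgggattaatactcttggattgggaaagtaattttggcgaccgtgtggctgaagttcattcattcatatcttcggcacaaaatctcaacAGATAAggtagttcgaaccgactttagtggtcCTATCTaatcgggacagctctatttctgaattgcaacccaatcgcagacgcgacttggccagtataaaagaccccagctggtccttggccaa
Jon65Aiii, chr3L:6050507-6050756, + strand: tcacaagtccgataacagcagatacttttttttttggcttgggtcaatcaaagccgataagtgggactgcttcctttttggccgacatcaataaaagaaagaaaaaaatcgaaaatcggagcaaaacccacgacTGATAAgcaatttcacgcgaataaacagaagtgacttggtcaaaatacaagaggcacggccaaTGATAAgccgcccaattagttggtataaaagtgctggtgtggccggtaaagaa
Jon65Aii, chr3L:6052071-6052320, + strand: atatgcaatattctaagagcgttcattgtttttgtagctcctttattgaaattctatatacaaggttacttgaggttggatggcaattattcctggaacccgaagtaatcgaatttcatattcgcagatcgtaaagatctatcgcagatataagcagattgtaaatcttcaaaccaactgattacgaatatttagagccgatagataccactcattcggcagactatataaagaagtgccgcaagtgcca
Jon65Ai, chr3L:6054444-6054693, - strand: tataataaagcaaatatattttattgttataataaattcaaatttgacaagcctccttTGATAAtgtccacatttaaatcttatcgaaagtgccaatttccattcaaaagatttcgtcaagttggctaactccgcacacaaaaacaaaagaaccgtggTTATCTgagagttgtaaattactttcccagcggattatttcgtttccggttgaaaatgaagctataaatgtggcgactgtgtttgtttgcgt

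Jon99Ciii and Jon99Cii are shown as a pair of genes with the same protein, of which Jon99Cii had a pooled candidate and Jon99Ciii none in any list. Jon74E is shown because its replicate 3 candidate has its summit 143 bp upstream of the TSS, inside the printed bases.
Jon99Ciii, chr3R:29921966-29922215, + strand: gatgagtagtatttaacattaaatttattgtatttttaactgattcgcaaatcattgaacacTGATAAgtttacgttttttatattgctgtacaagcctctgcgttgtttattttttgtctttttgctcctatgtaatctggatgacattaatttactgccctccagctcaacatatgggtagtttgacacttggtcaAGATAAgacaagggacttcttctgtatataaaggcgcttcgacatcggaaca
Jon99Cii, chr3R:29924616-29924865, - strand: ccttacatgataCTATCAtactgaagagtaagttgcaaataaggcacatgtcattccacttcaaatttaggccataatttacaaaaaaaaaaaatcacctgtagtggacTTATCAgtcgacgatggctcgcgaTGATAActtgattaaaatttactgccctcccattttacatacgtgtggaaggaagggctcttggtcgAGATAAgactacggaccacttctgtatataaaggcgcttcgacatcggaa
Jon74E, chr3L:17549128-17549377, - strand: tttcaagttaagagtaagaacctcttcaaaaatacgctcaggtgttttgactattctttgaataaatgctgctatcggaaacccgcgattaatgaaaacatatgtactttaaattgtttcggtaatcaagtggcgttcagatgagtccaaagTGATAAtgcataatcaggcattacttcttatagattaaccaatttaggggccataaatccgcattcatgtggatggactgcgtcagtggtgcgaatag

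LysB and LysD are shown as lysozyme genes with no candidate in any list, and LysS as the lysozyme gene with one in the pooled list.
LysB, chr3L:1207121-1207370, + strand: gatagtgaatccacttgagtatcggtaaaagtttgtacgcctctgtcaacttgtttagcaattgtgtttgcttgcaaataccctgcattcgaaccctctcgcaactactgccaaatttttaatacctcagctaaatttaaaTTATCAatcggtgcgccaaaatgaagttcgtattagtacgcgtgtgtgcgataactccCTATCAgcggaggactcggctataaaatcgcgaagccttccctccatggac
LysD, chr3L:1211197-1211446, - strand: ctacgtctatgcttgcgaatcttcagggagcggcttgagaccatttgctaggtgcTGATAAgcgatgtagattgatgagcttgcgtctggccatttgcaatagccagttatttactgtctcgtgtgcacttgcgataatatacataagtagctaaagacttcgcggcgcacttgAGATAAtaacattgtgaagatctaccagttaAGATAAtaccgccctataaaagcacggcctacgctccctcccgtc
LysS, chr3L:1227497-1227746, + strand: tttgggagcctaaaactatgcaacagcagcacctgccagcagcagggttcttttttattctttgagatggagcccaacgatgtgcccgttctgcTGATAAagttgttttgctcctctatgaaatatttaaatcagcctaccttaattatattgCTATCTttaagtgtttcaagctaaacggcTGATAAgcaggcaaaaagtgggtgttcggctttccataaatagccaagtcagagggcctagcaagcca

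The strongest pooled candidates of Jon65Ai and LysS lay outside these promoters, downstream of the TSS in coding exons, and are shown as examples of that position. The 101 bases centred on the pooled summits, on the + strand, hold no GATA word and are rich in G and C.
Jon65Ai summit, chr3L:6053964-6054064, + strand: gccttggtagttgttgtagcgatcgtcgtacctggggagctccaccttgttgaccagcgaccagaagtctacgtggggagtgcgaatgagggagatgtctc
LysS summit, chr3L:1227872-1227972, + strand: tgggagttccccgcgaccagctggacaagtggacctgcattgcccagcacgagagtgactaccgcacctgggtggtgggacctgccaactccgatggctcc

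GATA words were common in these promoters. In the 300 bases from 250 upstream to 50 downstream of the TSS, 39 of the 43 genes held at least 1 GATA word, or 90.7%, beside 46.7% of all protein-coding genes. The lysozymes held one in 6 of 6 genes, the amylases in 2 of 2, the trypsins in 10 of 11, the Jonah proteases in 14 of 16 and the maltases in 7 of 8. The exceptions were Jon25Biii, Jon65Aii, etaTry and Mal-A1. The 43 promoters carried 81 GATA words, at most 4 in a promoter, and 28 genes held 2 or more (65.1%, beside 16.1% of all genes). The word AGATAA was present in 22 promoters (51.2%, beside 18.6% of all), and so was TGATAA (51.2%, beside 22.7%). AGATAG stood in 11 (25.6%, beside 9.13%) and TGATAG in 12 (27.9%, beside 9.94%).

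The words were densest just upstream of the start. Between 100 and 51 bases upstream, 25 of 43 promoters held a GATA word (58.1%), beside 12.5% of all promoters. In the 50 bases downstream the shares were 1 of 43 and 6.72%. The word TATAAA, searched on both strands after the data were seen, was in 31 of the 43 promoters (72.1%, beside 45.8% of all). On the strand of the gene and within the 50 bases before the TSS it was in 25 (58.1%, beside 10.8%), which is where a TATA box stands. TATCGATA, the word bound by the DREF factor at many broadly expressed genes, was in 0 of 43, beside 9.36% of all promoters. Base composition was close to that of other genes, with a median GC content of 40.3% against 38%.

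**Figure D1:**
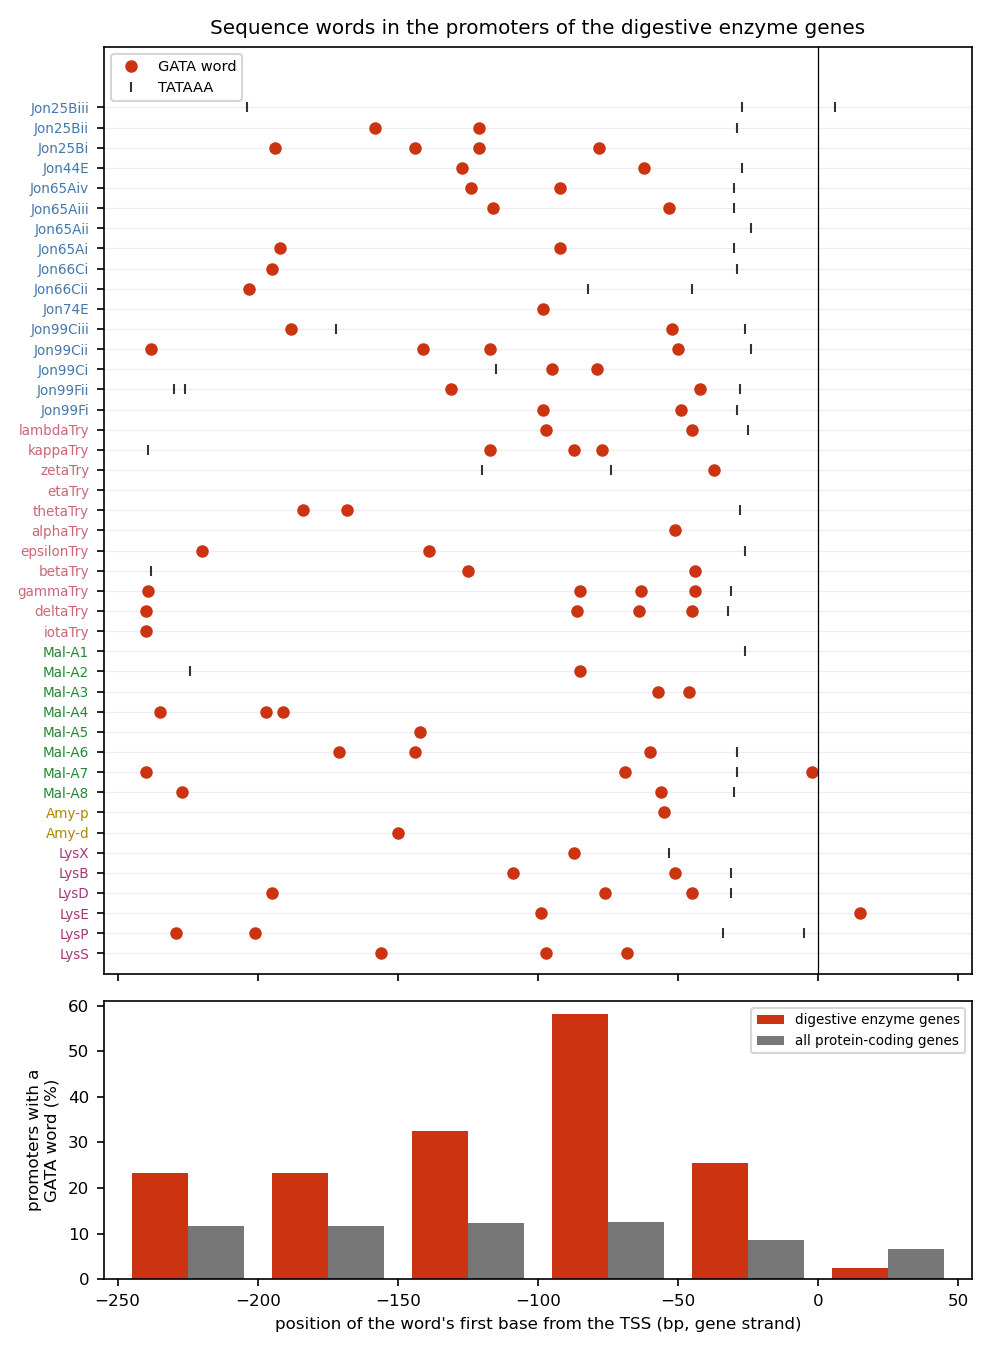
Upper panel: positions of GATA words (red points) and TATAAA (black ticks), on either strand, in the promoter of each of the 43 genes, in bp from the TSS, with gene names coloured by family. Lower panel: share of promoters with a GATA word starting in each 50-bp bin, which peaks at 58.1% between 100 and 51 bp upstream in these genes, beside 12.5% of all protein-coding genes.

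GATA words were present with and without a candidate. Of the 20 digestive enzyme genes with no candidate within 1 kb in any list, 19 held a GATA word, and of the 23 with a candidate 20 did. Among all 4151 protein-coding genes in no list, 44.4% held one. Across all protein-coding genes, an IDR peak lay within 1 kb of 8.94% of those with a GATA word in the promoter and of 8.62% of those without. Genes with an IDR peak held a GATA word in 47.6% of promoters. A match is a run of letters and says nothing of whether a factor sits there.

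Mal-A5, a maltase gene, was the one digestive enzyme gene with an IDR peak within 1 kb of its TSS. That is 1 of 43, or 2.33% (0.412% to 12.1%), beside 8.77% of all protein-coding genes. The gene (FBgn0050359) lies at chr2R:8462753-8465092 on the + strand, and the peak spans chr2R:8462435-8462818 in the intergenic DNA before it. The pooled summit stood 126 bp upstream, with a signal of 93.9 and rank 250. In replicate 2 the signal was 50.8, rank 261, with the summit 198 bp upstream. In replicate 3 it was 39.9, rank 417, with the summit 118 bp upstream. The replicate summits were 80 bp apart and the peaks overlapped. Both replicates placed this site far above the median of their lists. An IDR peak is chosen for agreement between the replicates, so these ranks are no separate support. An AGATAG word begins 16 bp from the pooled summit, and the 201 bases around the summit are 32.3% GC.

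Mal-A5 stood apart from the other maltase genes around it. The 8 Mal-A genes lie in a row of 26.3 kb. The next TSSs, of Mal-A6 and Mal-A4, are 2531 and 3812 bp from the same summit. Mal-A1 and Mal-A2 share a candidate between them with a pooled signal of 15.9, rank 19114, at 734 and 989 bp from their starts. At Mal-A1 replicate 3 had a candidate of rank 10451, and replicate 2 had no candidate within 1 kb. Mal-A6 had a candidate in replicate 2 only (11.6, rank 17790), in its own coding exon. Mal-A3, Mal-A4, Mal-A7 and Mal-A8 had none within 1 kb in any list. A further site lay in the 3′ UTR of Mal-A7, 2446 bp from its TSS, with a pooled signal of 22.2 (rank 6314) and 20.5 (rank 2257) in replicate 2.

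**Figure D2:**
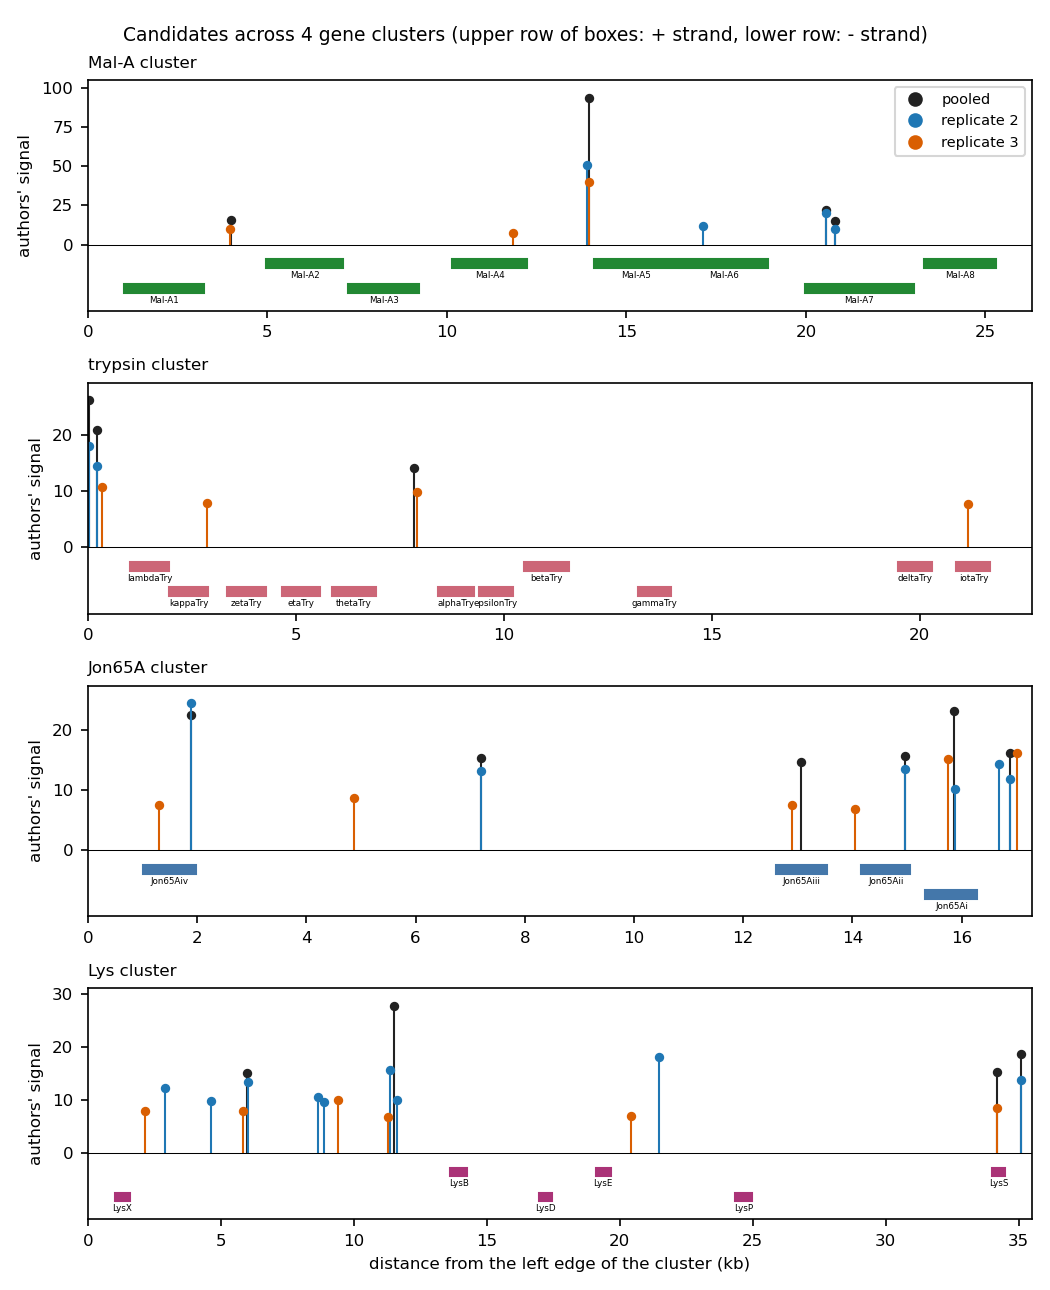
Authors' signal at each candidate summit (vertical axis) against distance along the maltase, trypsin, Jon65A and lysozyme clusters in kb (horizontal axis), with boxes for the digestive enzyme genes. The Mal-A5 site reaches 93.9 in the pooled list, while pooled signals in the other 3 clusters stay at or below 27.7, and signals of different lists are on scales that need not match.

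No other digestive enzyme gene had a candidate among the 1205 strongest of any list. 17 of 43 genes had a pooled candidate within 1 kb, or 39.5% (26.4% to 54.4%), beside 46.3% of all genes. Replicate 2 had one at 8 genes, 18.6% (9.74% to 32.6%), beside 44.6%. Replicate 3 had one at 17 genes, 39.5%, beside 53.9%. Both replicates had one at 5 genes, 11.6% (5.07% to 24.5%), beside 30.0%, and these 5 were also in all 3 candidate lists, beside 27.2%. These counts ask for no overlap, and at Jon65Aiv and Jon65Aii, among the 5, the replicate peaks did not overlap. No list held a candidate at 20 genes, 46.5% (32.5% to 61.1%), beside 29.7%. Among the 10269 genes that, like these, have 1 TSS position, the pooled share was 41.3%, that of replicate 2 40.0% and that of replicate 3 48.0%. Both replicates had a candidate at 24.1% of them, all 3 candidate lists at 21.4%, and 34.1% were in no list. The intervals of the digestive enzyme genes took in these shares except in replicate 2, where the interval lay below 40.0%. Neighbouring genes can share a candidate, which these intervals do not allow for.

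Candidates close to the start were fewer at these genes. Within 250 bp of a TSS the pooled list reached 3 genes, 6.98%, beside 25.3% of all genes. Replicate 2 reached 1 gene (22.9% of all genes) and replicate 3 reached 5 (30.3% of all genes). For digestive enzyme genes with a pooled candidate within 1 kb, the summit of the strongest one stood at a median of 734 bp. For all genes with a candidate it stood at 283 bp. These medians were 682 and 301 bp in replicate 2, and 310 and 270 bp in replicate 3. Their strongest pooled candidate had a median signal of 15.3, below the 21.5 of all genes and the list's median of 17.2. In replicate 3 the medians were 8.51 and 11.8. In replicate 2 the order was the other way round, at 15.7 for the 8 digestive enzyme genes and 14.6 for all genes. Among genes with 1 TSS position the median distances were 298.5 bp in the pool, 322 bp in replicate 2 and 282 bp in replicate 3. Their median signals, in that order, were 20.1, 13.8 and 11.0. At 17.6% of digestive enzyme genes with a pooled candidate the strongest lay within 250 bp, beside 44.7% of such genes with 1 TSS. Within 5 kb, where neighbouring genes come in reach, 37 of 43 genes had a pooled candidate (86.0%, beside 80.3%), so the order of the shares turned with distance. It turned in replicate 3 too (93.0%, beside 88.7%), but not in replicate 2 (74.4%, beside 81.8%).

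**Figure D3:**
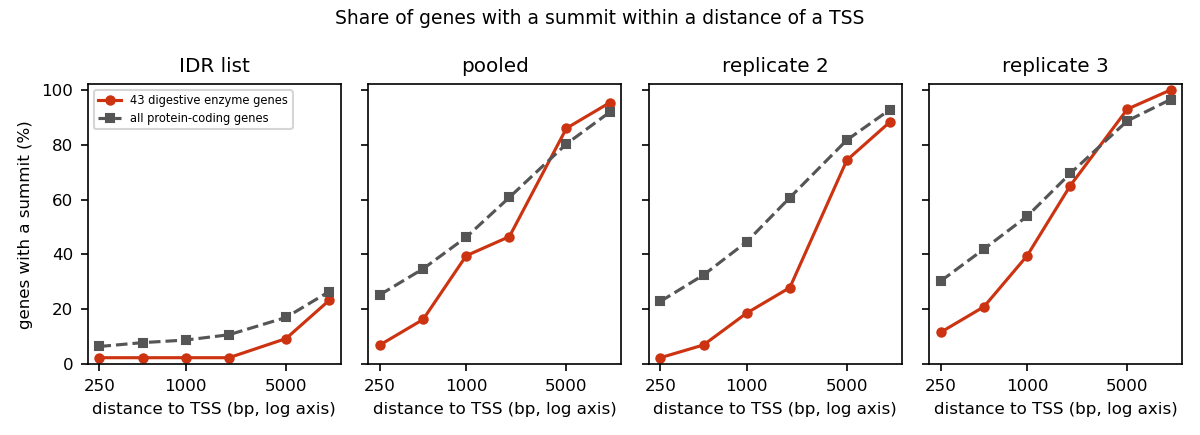
Share of genes with a summit within 250, 500, 1000, 2000, 5000 or 10000 bp of a TSS (log axis) in each list, for the 43 digestive enzyme genes (red) and all protein-coding genes (grey). At 250 bp the pooled shares are 6.98% and 25.3%, and at 5000 bp they are 86.0% and 80.3%.

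Among the 16 Jonah genes, 10 had a pooled candidate (62.5%, interval 38.6% to 81.5%), and the interval takes in the 46.3% of all genes. Replicate 2 met 4 (25%, beside 44.6%) and replicate 3 met 9 (56.2%, near the 53.9% of all genes), and none had an IDR peak. The 4 genes of the Jon65A cluster were in the pooled list without exception, in a region of 17.3 kb that held 6 candidates in each list, 0.347 per kb. Over the whole genome each list holds 0.224 candidates per kb. With a margin of 5 kb in place of 1 kb the pooled value at Jon65A was 0.237, close to the genome's. The smaller Jon66C cluster of 4.11 kb held 3 pooled candidates (0.730 per kb), 2 in replicate 3 (0.487 per kb) and 0 in replicate 2. With the 5 kb margin its values were 0.248 in the pool, 0.330 in replicate 3 and 0 in replicate 2. At Jon65Ai the strongest pooled signal was 23.0, rank 5540, with the summit 429 bp downstream, in its own coding exon. In that exon replicate 2 had a signal of 10.1 and replicate 3 one of 15.1, with summits 122 bp apart. Jon65Ai also had upstream candidates, with 16.2 in the pool, 14.4 and 11.9 in replicate 2 and 16.1 in replicate 3. The upstream pooled summit is 598 bp from Jon65Ai and 95 bp from the TSS of tant, the gene on its other side. The upstream summits of replicate 2 are 301 and 95 bp from that TSS. The one of replicate 3 is 29 bp from it, in the 5′ UTR of tant. Both replicates thus met the coding exon of Jon65Ai, at rank 25950 in replicate 2 and 3457 in replicate 3. Every upstream candidate lay nearer to tant.

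The remaining Jon65A genes were matched less closely between replicates. Jon65Aiv had a pooled signal of 22.4 and a replicate 2 signal of 24.4 (rank 1352) at the same summit, 889 bp downstream near the end of the gene. In replicate 3 its candidate had a signal of 7.57 and lay 297 bp downstream, and the replicate peaks, with summits 592 bp apart, did not overlap. At Jon65Aii the pooled signal was 15.6 and that of replicate 2 13.5, at 797 and 798 bp downstream, whereas the replicate 3 signal of 6.76 lay 114 bp upstream. Its replicate peaks did not overlap either. Jon65Aiii had 14.6 in the pool and 7.52 in replicate 3.

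Outside Jon65A the Jonah genes had pooled candidates mostly from the weaker end of the list. Jon44E had 18.2 in the pool and 10.6 in replicate 2, in its coding exon. Jon66Ci and Jon66Cii had pooled signals of 15.1 and 14.2 in their coding exons. Replicate 3 had 12.6 beyond the end of Jon66Ci and 7.18 in Jon66Cii. Jon25Bi had 15.3 in the pool, in a coding exon of its neighbour Marcal1. Jon99Ci and Jon99Cii share a candidate of 14.4 that lies in the coding exon of Jon99Ci. Jon25Biii and Jon74E had candidates in replicate 3 only, with signals of 10.1 and 9.79 at Jon25Biii and 8.52 at Jon74E. Jon25Bii, Jon99Ciii, Jon99Fi and Jon99Fii were in no list.

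**Figure D4:**
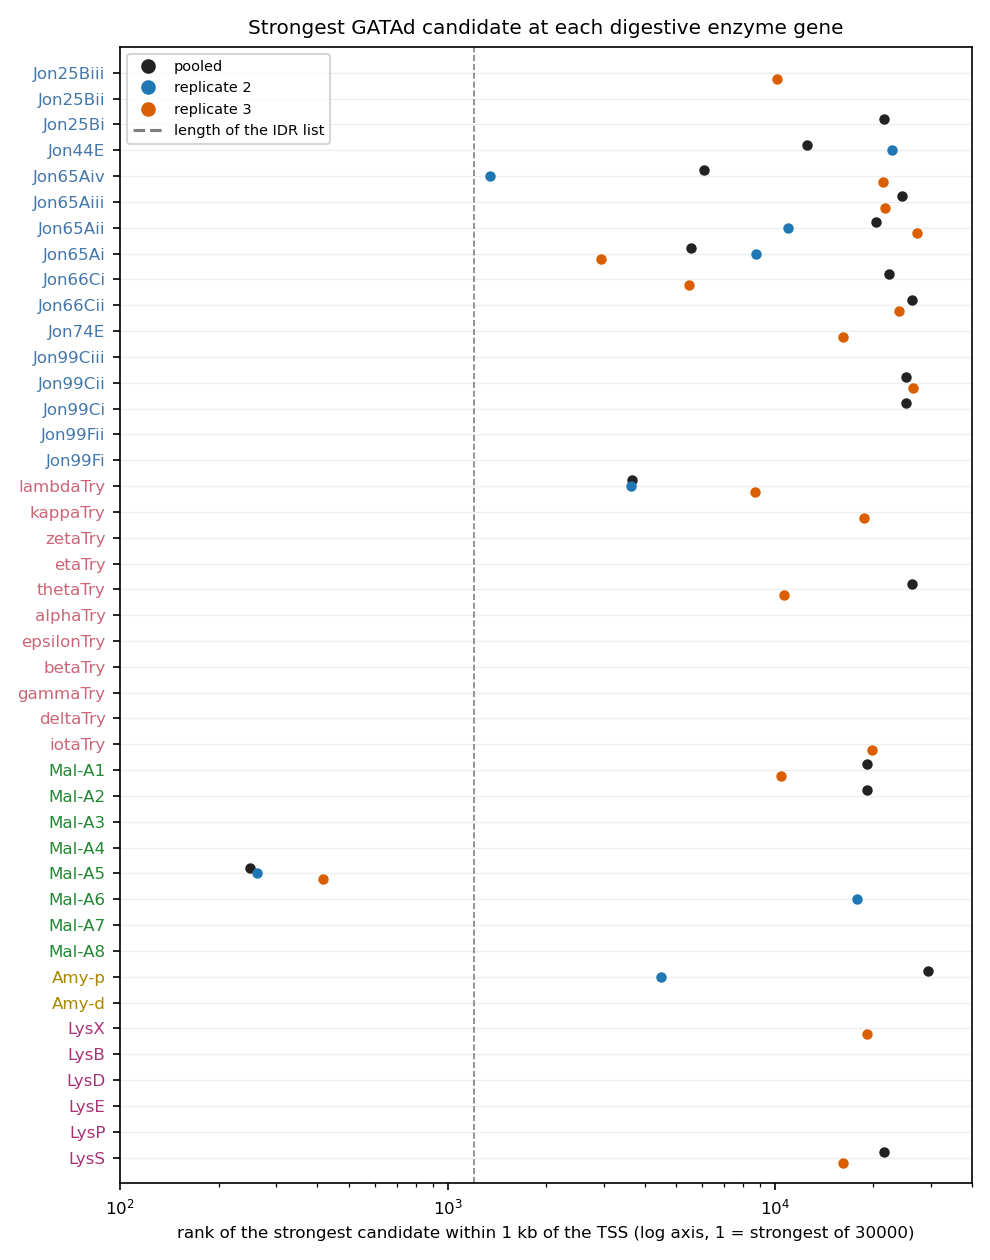
Rank of the strongest candidate within 1 kb of the TSS (log axis, 1 is the strongest of 30000) for each of the 43 genes in the pooled list and both replicates, with no point where there is no candidate. Mal-A5 alone lies left of the dashed line at rank 1205, in all 3 lists, and the other points lie to its right, from rank 1352.

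Of the 11 trypsin genes, in 22.7 kb, 2 had a candidate in the pooled list (18.2%, interval 5.14% to 47.7%), and the interval takes in the 46.3% of all genes. Replicate 2 met 1 (9.09%, beside 44.6%) and replicate 3 met 4 (36.4%, interval 15.2% to 64.6%, beside 53.9%). lambdaTry, at the edge of the cluster, had the strongest at 26.3, rank 3659, but the summit stood 977 bp upstream in a coding exon of the neighbouring gene sha. A weaker candidate of 20.9 lay in the 3′ UTR of sha. Replicate 2 had signals of 18.0 and 14.5 there and replicate 3 one of 10.7, with summits as near as 116 bp. thetaTry had 14.2 in the pool and 9.95 in replicate 3, with summits 921 and 986 bp upstream. kappaTry and iotaTry had candidates in replicate 3 only, at ranks 18772 and 19790. alphaTry, betaTry, gammaTry, deltaTry, epsilonTry, zetaTry and etaTry were in no list, and all of them but etaTry held a GATA word.

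Amy-p had a pooled signal of 13.6, rank 29301, and 17.1 in replicate 2 (rank 4499), with summits 433 and 470 bp upstream, and Amy-d had none in any list. Of the lysozyme genes, LysS had 15.3 in the pool and 8.51 in replicate 3, with summits 175 and 168 bp downstream in its coding exon. LysX had 7.94 in replicate 3 only, 585 bp upstream, nearer to the TSS of Aplip1. LysB, LysD, LysE and LysP were in no list. With LysS these genes lie within the gene mwh, and the strongest pooled candidate of the 35.5 kb cluster, 27.7, was in an intron of mwh near the TSS of CG9119. Over all 9 clusters with at least 2 genes, and 133.7 kb, there were 0.180 pooled candidates per kb, 0.165 in replicate 2 and 0.202 in replicate 3, each below the genome's 0.224.

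Where candidates met digestive enzyme genes, they often lay in coding sequence. The 17 distinct pooled candidates within 1 kb comprised 11 in coding exons, 5 in intergenic DNA and 1 in a 3′ UTR. Of the 7445 pooled candidates within 1 kb of any TSS, 14.5% were in coding exons, 34.0% intergenic, 31.6% in introns and 16.2% in 5′ UTRs. In the IDR list 0.238% of peaks near a TSS were in coding exons. In replicate 2, 6 of 11 candidates at these genes were in coding exons, beside 19.4% of its candidates near any TSS. In replicate 3, 6 of 19 were in coding exons (10.9% near any TSS) and 9 were intergenic (36.3% near any TSS). Coding exons make up 47.7% of the bases within 1 kb of these starts, beside 28.6% around all protein-coding genes, and the part of this in the counts was not tested.

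Base composition moved with that position. Within 100 bp of the summit the 17 pooled candidates had a median GC content of 53.7%, beside 39.3% for all pooled candidates near a TSS. The 11 in coding exons ranged from 44.3% to 63.7%, with a median of 55.7%, while the 5 intergenic ones ranged from 30.8% to 42.3%. Coding-exon candidates near any TSS had a median of 49.3% and a median signal of 16.6, below the 21.6 of intergenic ones. In replicate 3 the medians were 37.8% at these genes and 36.8% near any TSS. GATA words lay within 100 bp of 6 of the 17 pooled summits (35.3%), close to the 35.4% of all pooled candidates near a TSS, and of 10 of 19 in replicate 3 (52.6%, beside 38.1%). The part of base composition in these candidates was not tested.

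**Figure D5:**
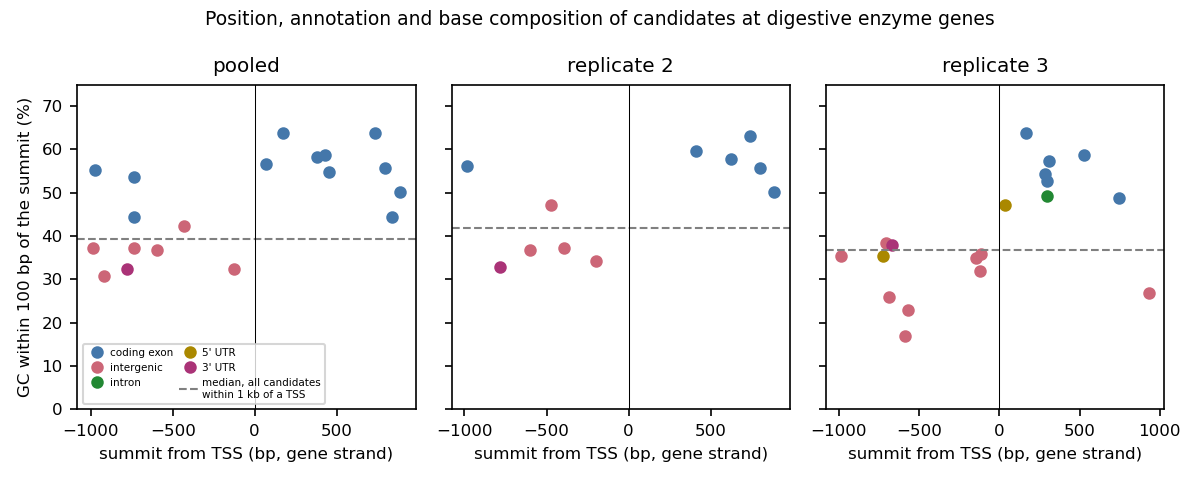
GC content within 100 bp of each candidate summit against its position from the TSS in bp, for the pooled list and each replicate, coloured by annotation, with a candidate near 2 of the genes drawn for each. Pooled candidates in coding exons sit at 44.3% GC or more, 11 candidates in all, while the dashed line marks the median of 39.3% for candidates near any TSS.

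Several of these genes have near-identical copies, and short reads from such copies cannot be placed with certainty. The gammaTry and deltaTry proteins are identical and their 250 upstream bases match at 99.6%. The Jon99Cii and Jon99Ciii proteins are identical as well, with 63.6% in the upstream bases, beside a median of 52.4% over all pairs of Jonah genes. The Jon99F pair is 99.3% identical in protein, the Amy pair 99.4%, and LysB and LysD 98.6%. The upstream bases of these pairs match at 62%, 58% and 52.8%. Within 1 kb of the TSS, more than 10% of 31-base words recur elsewhere in the genome at 16 of 43 genes (37.2%), beside 5.16% of all genes. The share was 94.5% at gammaTry, 83.0% at deltaTry, 39.9% at Jon99Cii, 38.0% at Jon99Ciii and 36.8% at both amylase genes. At LysS it was 30.1%, but 0.212% within 250 bp of the TSS. LysS shared at most 42 such words with another lysozyme gene, LysP. The median share within 1 kb was 10.6% at the 20 genes in no list and 0.254% at the 23 genes with a candidate. Of the 27 genes at or below 10%, 12 had a pooled candidate (44.4%). That is near the 46.3% of all genes and the 41.3% of genes with 1 TSS, shares that were not limited by repeated words. How reads with several matches were treated is not given in the sources used here, and the part of repeated sequence in the missing candidates was not tested.

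The nearest IDR summit was a median of 49912 bp from the starts of the digestive enzyme genes. The median was 28548 bp for the 13945 protein-coding genes on chromosome arms that hold IDR peaks. Of the 43 genes, 32 had none within 20 kb (74.4%, beside 59.3% of those 13945). Within 10 kb the shares were nearly equal, at 10 of 43 (23.3%) and 26.5%. The 43 distances lead to only 11 peaks, since genes of a cluster share the nearest one. For the trypsins it was at 47627 to 67507 bp and for the lysozymes at 91528 to 123973 bp. The amylase genes were 138007 and 142468 bp from theirs. Apart from the maltases, the Jon25B genes were nearest, at 5274 to 9651 bp from a peak of signal 109 beside betaggt-I.

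Other digestive genes, 28 genes outside the naming rule such as lipases, mannosidases, proteases and further carbohydrate enzymes, had no IDR peak within 1 kb. A pooled candidate met 13 of them (46.4%, beside 46.3% of all genes). Both replicates met 4 (14.3%, beside 30.0%), and 6 were in no list (21.4%, beside 29.7%). The maltase Mal-B1 had a pooled signal of 23.2, the highest of the 28, and 24.2 in replicate 2. Their promoters held a GATA word in 24 of 28 (85.7%). Of 16 gut gene regulators, 2 had an IDR peak (12.5%, beside 8.77%). lab, the Hox gene of the middle midgut, had a pooled signal of 84.7 with 47.9 and 36.2 in replicates 2 and 3, 79 bp from a TSS. sbb had 53.9, with 15.2 and 40.1. The GATA factor genes GATAe and srp had pooled signals of 16.8 and 15.7, and GATAd itself a replicate 3 candidate of 23.2 only. 12 of the 16 had a pooled candidate (75%, interval 50.5% to 89.8%, beside 46.3%), and 10 (62.5%) a GATA word in the promoter. A gene with several TSSs can be met at any of them, and among genes with 1 TSS the pooled share was 41.3%. The 16 regulators were not matched to other genes by number of TSSs, so the 46.3% may not be a like background for them.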

How the data were processed

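Chromatin immunoprecipitation peaks were read for 2 samples of 1 group. Per the file headers and deposited file records, each list is in narrowPeak format on dm6, called against a control, and the candidate lists were the input to the IDR list. The deposited signal, column 7, is the authors' peak signal over the control. The deposited summit offset, column 10, was added to the start. Which aligner, caller and thresholds were used is not given in the sources used here. Lists on the older build were not used. Depth is unknown.

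Summits were assigned to every protein-coding TSS within 1 kb (Ensembl release 115), with pandas 2.3.3 and numpy 2.4.6. Summits were annotated in the order 5′ UTR, 3′ UTR, coding exon, intron, intergenic. Clusters join genes with TSSs at most 20 kb apart, with a 1 kb margin. Words were sought in the RefSeq Release 6 sequence, on both strands. Repeated words are 31-base words found more than once in the genome. Protein identity comes from global alignment (Biopython 1.88). The assignment was checked on simulated summits. Genes named are all 43, by the rule that lists each by whether it has a candidate, with values for those in a list. The genes and lists were chosen with earlier results of these data known. Alternatives were other windows, the 10000 strongest candidates, each replicate alone, other cluster limits and genes with 1 TSS.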

Additional observations from a re-analysis of the deposited data

How the results depend on the processing

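Of 48 alternatives, 30 left the value near the reported one. Near meant within 1.5 times for counts of genes and within the Wilson interval for shares of all genes. For medians and densities it meant within the spread between replicates. For the median signal that spread, 5.09, came from 2 lists on scales that need not match. A pooled median of 20.3 at 5 kb so counted as near the 15.3 at 1 kb, and the label tells little for this value. The comparison with all genes depended on distance. In the pooled list the digestive enzyme genes had the lower share at 1 kb (39.5%, beside 46.3%) and the higher at 5 kb (86.0%, beside 80.3%). The distance and the number of candidates moved the counts of genes most. The count with a pooled candidate, 17 at 1 kb, was 3 at 250 bp (6.98%, beside 25.3% of all genes). It was 7 at 500 bp (16.3%, beside 34.8%) and 37 at 5 kb. Among the 10000 strongest candidates it was 4 (9.30%, beside 27.3%). With a replicate alone in place of the pool it ranged from 8 to 17. The 8 came without replicate 3. The count in both replicates, 5, was 1 at 250 bp, 1 at 500 bp, 9 at 2 kb, 30 at 5 kb and 3 among the 10000 strongest. The count in all 3 candidate lists, 5, was 1, 1, 8, 27 and 3 at the same settings. Shares of all genes at these other settings are not given for the both-replicate and 3-list counts. The IDR count, 1, was 4 at 5 kb (9.30%, beside 17.0% of all genes). Counting the strongest candidates of a single replicate, as many as the IDR list holds, also gave 1 without replicate 2 and 1 without replicate 3. An IDR peak comes from both replicates, so this agreement is no separate support. Restricting the background to genes with 1 TSS, a choice made after seeing the data, gave 41.3% for the pooled list and 6.80% for the IDR list. No paired analysis was possible because the study has 1 group. Read depth is unknown and every candidate list holds 30000 peaks, so a gene without a candidate is one at which none was listed, not one shown to be unbound.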
